A study of Mus musculus with 9 samples.

Results

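The genes described here are 38 genes of homologous recombination, the Fanconi anaemia pathway and the DNA damage checkpoint. They were compared among normal thymocytes and, from mice with active β-catenin, pre-transformed thymocytes and thymic tumours, each sample from a different mouse. The genes were listed by name. Each gene was represented by the probe set that names it alone and has the highest mean log2 signal over the 9 arrays. Of the 38 genes, 36 were named by such a probe set in the tables used here and all 36 passed the filter on dim probe sets, out of 18193 genes named and 11588 tested. Xrcc2 and Rbbp8 were not analysed here.

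Homologous recombination copies the intact sister chromatid to mend a broken chromosome: the break is resected by RAD50 and NBN with their partners, BRCA1, PALB2 and BRCA2 prepare the exposed strand, and RAD54 proteins drive strand exchange. The Fanconi proteins unhook crosslinks between DNA strands, with a core complex that attaches ubiquitin to FANCD2. ATR and ATM are the kinases that sense stalled forks and breaks, and they signal through CHK1 and CHK2. Homologous recombination needs a sister chromatid and so acts in dividing cells, whereas the breaks that RAG makes at receptor genes in CD4+CD8+ double-positive (DP) thymocytes are joined by end joining, with ATM and its partners at the break.

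The data were Affymetrix arrays of total RNA from 9 C57Bl/6 mice, 1 array per mouse, all with the genotype R26NC/NC, an allele whose product is an active form of β-catenin that is switched on by Cre. The 2 control samples were DP thymocytes sorted from mice without Cre (CD4Cre-) at 6 weeks. The 3 pre-transformed samples were DP thymocytes sorted from 6-week-old mice with CD4Cre+, in which the Cd4 promoter drives Cre in T cells. The 4 tumours were total thymic lymphomas, not sorted, of sick CD4Cre+ mice aged 28, 26, 23 and 21 weeks (tumours 1 to 4). Cre was absent from all controls and present in both other groups, so that Cre and active β-catenin cannot be told apart.

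Labelling of sorted samples started from 0.1 µg RNA with an amplification step, and that of tumours from 2.5 µg by the standard Affymetrix method, so that labelling, sorting and age cannot be told apart from tumour state in any comparison with tumours. The sorted cells were over 98% and the tumours at least 95% DP cells per the labels. Cd4 signal was 707 to 738 in controls, 832 to 1110 in pre-transformed cells and 1008 to 1725 in tumours, and Cd8a signal was 3596 to 3635, 3710 to 3931 and 2056 to 2946. Of 13 DP thymocyte markers measured, all 13 were above the dim level on every sorted array and 12 on every tumour array, where Ptcra was dim. Their summed signal was 33992.1 to 38905.8 on sorted arrays and 16925.9 to 23010.4 in tumours. The summed signal of 10 myeloid markers was 142.9 to 288.9 on sorted arrays, 160.9 in tumour 2 and 3402.6 to 3626.7 in the other 3 tumours. That of 6 B cell markers was 242.6 to 293.7 on sorted arrays, 23.6 in tumour 2 and 485.5 to 798.4 in the others. The 10 stromal, epithelial and endothelial markers summed to 165.6 to 234.0 on sorted arrays and 195.9 to 453.5 in tumours, and 3 erythroid markers to at most 4.4 and to 15.1 to 60.6. The log2 ratio of the β-actin 3′ to 5′ probe sets, a sign of RNA or cRNA length, was 0.20 to 0.35 in sorted samples and 0.54 to 1.14 in tumours. In such bulk samples, fewer cells of a type and less RNA per cell cannot be told apart.

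The sequence upstream of the genes was searched for short words bound by known transcription factors. E2F factors, which switch on genes for DNA synthesis as cells enter the cycle, bind at many promoters of this kind. RefSeq transcript starts on GRCm38.p6 gave at least 1 window of 250 bases upstream for 31 of the 36 genes (35 windows). A window belongs to 1 transcript start, and for 23 of the 31 genes a window overlaps the span of the gene record. An E2F word (TTTCCCGC, TTTCGCGC, TTTGCCGC or TTTGGCGC on either strand) stood upstream of such a start in 6 of the 31 genes (19.4%), against 4.05% of the 9045 genes tested that have a window. The 30 bases around each are shown 5′ to 3′ on the gene's strand, with the word in capitals, to let the 4 genes that rose in tumours (the first 4) be compared with the 2 that did not pass.
Bard1: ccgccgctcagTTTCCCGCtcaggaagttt
Brca2: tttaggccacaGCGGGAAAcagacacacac
Chek2: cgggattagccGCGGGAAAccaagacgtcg
Topbp1: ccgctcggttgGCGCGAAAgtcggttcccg
Fancg: tttcttttcagTTTCCCGCggaaccgtctc
Mdc1: ttttcttcagcctgTTTCCCGCcggtagcc

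These stretches lie at chr1:71103163-71103192 (minus strand) for Bard1, chr5:150522442-150522471 (plus) for Brca2, chr5:110839820-110839849 (plus) for Chek2, chr9:103305187-103305216 (plus) for Topbp1, chr4:43010335-43010364 (minus) for Fancg and chr17:35841468-35841497 (plus) for Mdc1. The word began 209, 168, 152, 129, 52 and 16 bases before the transcript start, in that order. The words of Bard1 and Mdc1 lie outside the span of the gene record, and those of Brca2, Chek2, Topbp1 and Fancg lie inside it. Bard1, Fancg and Mdc1 carry the same word, TTTCCCGC, on the gene's own strand, and Brca2 and Chek2 carry it on the opposite strand, while Topbp1 holds TTTCGCGC on the opposite strand. Of genes with a window, 4 of 19 that rose in tumours (21.1%) and 2 of 12 that did not (16.7%) had an E2F word in it. The CHR word TTTGAA, an element of genes expressed in mitosis, stood in the windows of 2 genes (6.45%, against 12.7% of the genes tested), and CCAAT in 16 (51.6%, against 40.3%). The E-box CACGTG, bound by MYC among others, stood in the window of 1 gene (3.23%, against 9.98%), Parp1, shown with the word in capitals because the rise of Parp1 was among the 3 largest measured above the dim level in both groups.
Parp1: acctcccaaggaCACGTGctgaagccccgc

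That stretch lies at chr1:180568830-180568859 (plus), outside the span of the gene record, and its word begins 49 bases before the start site of Parp1. A match describes letters in this window and is not evidence of binding.

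Against pre-transformed cells, tumours had higher signals of most of the machinery. Of the 36 genes, 23 were higher and 2 lower in tumours at an adjusted p under 0.05 (limma, adjusted over all genes tested), while 11 did not pass. Of all genes tested 23.8% were higher and 31.1% lower. The median log2 change was 0.95 over the 36 genes and -0.13 over all genes. Chek1, the checkpoint kinase, had the largest rise among genes above the dim level in both groups, followed by Rad54l and Parp1. Rad51d and Rad52 fell. The 23 include Bard1 and Rad51b, which were dim in every group, and Rad51b passed the filter through its tumour arrays alone. With every signal under 40 set to 40, 19 were higher and 6 lower, against 17.2% and 27.0% of all genes.

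Against controls, 18 genes were higher and 2 lower in tumours and 16 did not pass, with 20.5% of all genes higher and 25.3% lower. The median log2 change was 0.69 over the 36 genes and -0.08 over all genes. This comparison uses the same tumour arrays as the first. A total of 17 genes were higher in both, and Rad51d and Rad52 were lower in both. Brca1, Bard1, Rad51c, Fanca, Chek2 and Clspn passed against pre-transformed cells and not against controls, and Atr passed against controls and not against pre-transformed cells. With each array centred on its median, which moves the median of all genes to -0.38 against pre-transformed cells and to -0.47 against controls, the split was 17 higher and 5 lower against pre-transformed cells, with 16% of all genes higher and 36.9% lower. Against controls it was 7 higher and 5 lower, with 10.7% and 35.6% of all genes. Relative to all genes, the median of the 36 genes was 1.08 and 0.77 higher with and without that centring. Centring shifts every gene of an array by the same constant, so this difference cannot change and is no check on the counts. The counts against controls also rest on having both control arrays, since 9 were higher and 0 lower without control 1 (10.1% and 12.2% of all genes) and 10 higher and 0 lower without control 2 (12.8% and 14.5%), where an unadjusted p under 0.05 gave 15 and 16 higher and 1 and 2 lower.

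**Figure D1:**
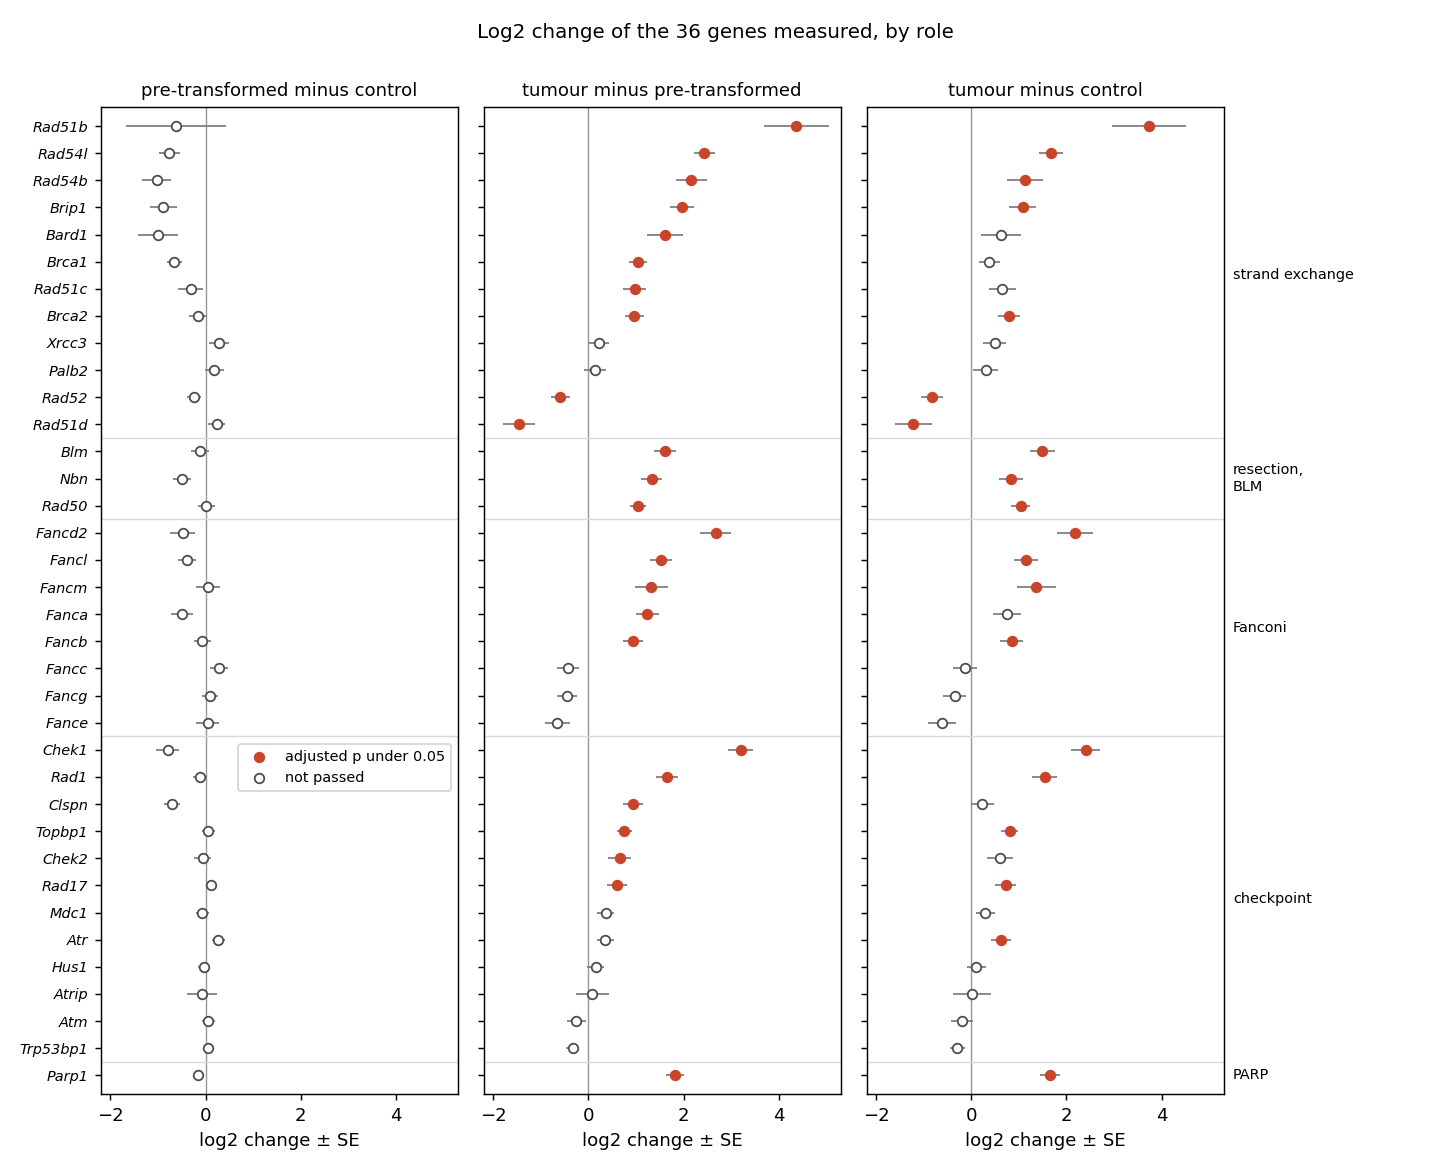
Log2 change with its standard error for each of the 36 genes, grouped by role, in pre-transformed minus control (left), tumour minus pre-transformed (middle) and tumour minus control (right). Filled points passed an adjusted p of 0.05, and the filled points lie mostly to the right of 0 in both tumour panels, with none filled in the left panel.

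Before transformation no gene of the group passed. In pre-transformed minus control, 0 of 36 genes were higher and 0 lower (limma, adjusted p under 0.05), against 1.16% and 0.57% of all genes. An unadjusted p under 0.05 was reached by 8 genes, all lower, namely Brca1, Clspn, Rad54l, Rad54b, Chek1, Brip1, Nbn and Bard1. Over all 11588 genes the same threshold gave 1129 higher and 915 lower. All pre-transformed arrays lay below both controls in 13 of 36 genes, against 15.7% of all genes, and above both in 4 genes (Rad51d, Xrcc3, Fancc and Atr), against 20.7%. The median log2 change was -0.09, and 0.02 over all genes. By role it was -0.47 for the 12 strand exchange genes, -0.02 for the 8 Fanconi genes and -0.05 for the 12 checkpoint genes. Bard1, Brip1, Rad51b, Rad51c, Rad54b, Fancm, Fancd2 and Atrip were dim in both groups, so that the size of their changes was not measured. The median of -0.47 rests in part on such genes. Rad54b, Brip1 and Bard1, listed above at an unadjusted p under 0.05, are among them.

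Strand exchange genes held both of the falls that passed beside 8 rises. In tumours against pre-transformed cells 8 of 12 rose and 2 fell, with a median log2 change of 1.00, and against controls 5 rose and 2 fell. Among all genes 23.8% rose and 31.1% fell against pre-transformed cells, and 20.5% and 25.3% against controls. Falls were thus no more frequent here than among all genes.

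Rad54l encodes RAD54, a motor protein of strand exchange with the intact copy. Its signal was 83.0 and 115.7 in controls, 53.4, 71.1 and 51.0 in pre-transformed cells, and 292.2, 350.3, 248.6 and 375.5 in tumours 1 to 4. Every tumour lay above every sorted sample and the pre-transformed arrays lay below both controls. The rise over pre-transformed cells was 5.40-fold (log2 change 2.43 ± 0.22 SE, adjusted p = 2.68e-05) and over controls 3.19-fold (1.67 ± 0.25, adjusted p = 0.000638). The other, dimmer probe sets of Rad54l all passed as higher than in pre-transformed cells. Against controls they changed by 0.81, 0.54 and 2.49, and none passed (limma adjusted p = 0.0581, 0.165 and 0.0821). Its paralog Rad54b had signals of 21.8 and 24.4 in controls, 10.7, 12.3 and 11.0 in pre-transformed cells and 48.5, 69.9, 31.2 and 61.7 in tumours, so that the sorted samples were dim and all tumours higher.

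A signal is called dim where a group's mean lies under the mean 65th percentile of its arrays, which was 39.4 to 44.6 for sorted samples and 28.5 to 40.5 for tumours. A dim group is taken at that level, which makes a fold against it a lower bound, and between a pair of dim groups no fold is stated. Compared with pre-transformed cells, Rad54b was thus at least 1.16-fold higher in tumours (2.16 ± 0.33 on the log2 scale, adjusted p = 0.000413) and at least 1.24-fold higher than in controls (1.13 ± 0.37, adjusted p = 0.0305). These p-values belong to the log2 changes of the signals as measured, not to the bounds. With every signal under 40 set to 40, Rad54b passed in neither comparison (0.43 against pre-transformed cells, limma adjusted p = 0.102). The rise over controls passed in 15 of 22 other settings.

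Brca1, the ligase and scaffold that promotes resection, rose in tumours over pre-transformed cells, and its brightest probe set did not pass over controls. Its signal was 192.9 and 236.3 in controls, 118.0, 153.4 and 136.7 in pre-transformed cells, and 257.3, 305.7, 222.4 and 338.0 in tumours. Tumours did not overlap with pre-transformed cells, but tumour 3 lay within the range of the controls. The change was -0.66 ± 0.16 SE on the log2 scale before transformation (adjusted p = 0.0862), which did not pass. Tumours were 2.05-fold above pre-transformed cells (1.04 ± 0.19, adjusted p = 0.00131), and against controls the log2 change was 0.38 ± 0.22 (adjusted p = 0.177). Its other probe sets, dimmer in controls, changed against controls by 2.13, 3.61 and 1.13 (limma adjusted p = 0.0139, 0.00161 and 0.0839). With the mean of its probe sets Brca1 passed as higher than in controls (log2 change 1.81), so that this comparison is uncertain at the level of the gene.

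Bard1 and Brip1, which bind BRCA1, were dim in sorted cells. Bard1, the other subunit of the ligase, had signals of 13.9 and 20.0 in controls, 6.4, 12.3 and 7.5 in pre-transformed cells and 19.7, 30.1, 29.2 and 24.9 in tumours. All groups were dim, the tumour values lay above all pre-transformed values, and the log2 change was 1.61 ± 0.37 (adjusted p = 0.00448). It did not pass with every signal under 40 set to 40. Brip1, a helicase, had signals of 31.5 and 34.3 in controls, 15.0, 21.9 and 16.9 in pre-transformed cells and 82.0, 66.3, 57.4 and 75.0 in tumours. All tumours lay above all sorted samples. Brip1 was at least 1.59-fold higher in tumours than in pre-transformed cells (1.97 ± 0.25 on the log2 scale, adjusted p = 0.00015) and at least 1.71-fold higher than in controls (1.08 ± 0.28, adjusted p = 0.0117).

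Brca2, a mediator of strand exchange that works on single-stranded DNA, had signals of 94.0 and 107.2 in controls, 77.8, 106.2 and 88.7 in pre-transformed cells and 174.0, 181.9, 139.4 and 211.9 in tumours. The controls and pre-transformed cells overlapped, and all tumours lay above both. Brca2 was 1.94-fold above pre-transformed cells (log2 change 0.96 ± 0.20, adjusted p = 0.00261) and 1.74-fold above controls (0.80 ± 0.23, adjusted p = 0.0161). Palb2, which bridges BRCA1 and BRCA2, did not pass in any comparison, with signals of 58.7 to 86.0 on sorted arrays and 66.5 to 105.4 in tumours and log2 changes of 0.18 ± 0.20 in pre-transformed minus control, 0.13 ± 0.23 in tumour minus pre-transformed and 0.30 ± 0.26 in tumour minus control.

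Rad51b, Rad51c, Rad51d and Xrcc3, which act together in complexes that assist strand exchange, differed in direction against pre-transformed cells, with Rad51c higher, Rad51d lower and Xrcc3 not passing, while Rad51b was dim in every group. Rad51c had signals of 39.3 and 37.3 in controls, 32.0, 38.1 and 24.0 in pre-transformed cells, and 71.0, 63.3, 56.0 and 52.4 in tumours. All tumours lay above the sorted samples, and Rad51c was at least 1.38-fold higher than in pre-transformed cells (log2 change 0.97 ± 0.24, adjusted p = 0.00738), while against controls the log2 change was 0.65 ± 0.28 (adjusted p = 0.0766). Rad51d went the other way.

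For Rad51d, signals were 70.6 and 68.4 in controls, 79.6, 74.5 and 92.0 in pre-transformed cells, and 26.1, 16.4, 43.9 and 41.6 in tumours. Pre-transformed arrays lay above both controls and all tumours lay below all sorted samples. Rad51d was lower in tumours by at least 2.28-fold against pre-transformed cells (log2 change -1.46 ± 0.34, adjusted p = 0.00491) and by at least 1.94-fold against controls (-1.22 ± 0.39, adjusted p = 0.0263).

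Rad51b had signals of 3.1 and 2.1 in controls, 0.5, 3.1 and 2.9 in pre-transformed cells, and 29.5, 42.3, 28.5 and 38.1 in tumours. It passed as higher (log2 change 4.37 ± 0.69, adjusted p = 0.000519), but all groups were dim, so that the size of the change is not measured, the gene passed the filter through its tumour arrays alone, and with every signal under 40 set to 40 the change was 0.02 and did not pass. Probe sets for bacterial transcripts that should be absent had median signals of 0.3 to 1.1 in sorted samples and 1.1 to 3.2 in tumours. Xrcc3 did not pass, with 33.8 to 50.1 on sorted arrays, 47.0 to 60.0 in tumours and log2 changes of 0.28 ± 0.21 before transformation, 0.22 ± 0.22 against pre-transformed cells and 0.49 ± 0.25 against controls.

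Rad52, a mediator that anneals single strands, fell. Its signal was 100.1 and 113.0 in controls, 88.4, 93.2 and 89.1 in pre-transformed cells, and 47.8, 70.6, 67.2 and 56.7 in tumours. All tumours lay below all sorted samples, 1.51-fold below pre-transformed cells (log2 change -0.59 ± 0.20, adjusted p = 0.0295) and 1.78-fold below controls (-0.83 ± 0.23, adjusted p = 0.0142). The first of these passed in 13 of 22 other settings, where adjusted p ranged from 0.0132 to 0.208.

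The resection and dissolution genes rose together. All 3 measured passed as higher in both tumour comparisons, where 23.8% and 20.5% of all genes did. Rad50, the ATPase of the complex that tethers and trims broken ends, had signals of 140.9 and 174.5 in controls, 134.3, 189.8 and 152.9 in pre-transformed cells and 296.1, 346.7, 304.2 and 350.6 in tumours. Sorted groups overlapped, and tumours lay 2.06-fold above pre-transformed cells (log2 change 1.04 ± 0.17, adjusted p = 0.000712) and 2.06-fold above controls (1.04 ± 0.20, adjusted p = 0.00218). Nbn, its signalling partner that recruits ATM, had signals of 69.9 and 84.4 in controls, 61.7, 55.8 and 47.2 in pre-transformed cells and 122.9, 186.1, 118.3 and 129.2 in tumours. Tumours lay above both sorted groups, and Nbn rose 2.51-fold over pre-transformed cells (1.33 ± 0.22, adjusted p = 0.000697) and 1.78-fold over controls (0.83 ± 0.25, adjusted p = 0.0209). Blm, the helicase that dissolves joined recombination intermediates, had signals of 131.4 and 179.2 in controls, 118.8, 152.8 and 158.3 in pre-transformed cells and 411.6, 476.8, 310.1 and 571.5 in tumours. Here the lowest tumour was above the highest sorted sample, a 3.04-fold rise over pre-transformed cells (1.60 ± 0.23, adjusted p = 0.000292) and 2.81-fold over controls (1.49 ± 0.26, adjusted p = 0.00149).

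**Figure D2:**
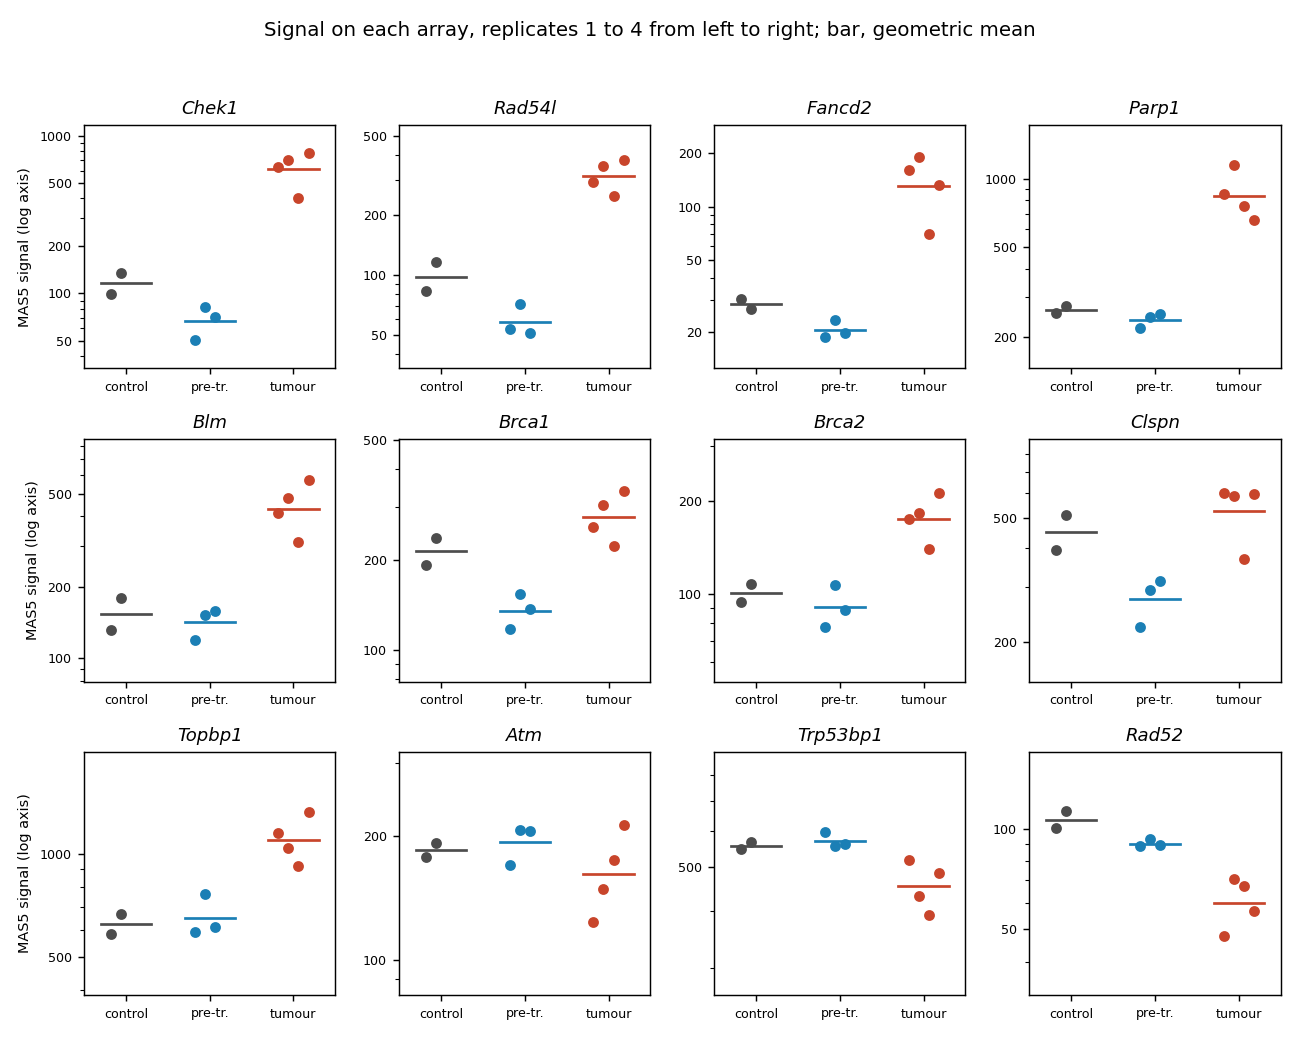
MAS5 signal on each array (log axis) for 12 of the genes, with control, pre-transformed and tumour samples from left to right, replicates ordered within a group and bars at geometric means. The tumours lie above all sorted samples for Chek1, Rad54l, Fancd2, Parp1, Blm, Brca2 and Topbp1, overlap with controls for Brca1 and Clspn and with both sorted groups for Atm, and lie below them for Rad52 and Trp53bp1.

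Within the Fanconi pathway, core complex genes were found both among those that rose and among those that did not pass. In tumours 5 of 8 genes were higher than in pre-transformed cells, 0 lower, with a median log2 change of 1.08, and 4 were higher than in controls. The shares of all genes were 23.8% higher and 31.1% lower than in pre-transformed cells, and 20.5% higher than in controls.

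Fancd2, the protein that receives ubiquitin and marks damaged DNA, had signals of 30.6 and 26.7 in controls, 18.7, 23.3 and 19.6 in pre-transformed cells, and 161.0, 190.3, 70.2 and 132.7 in tumours. Sorted samples were dim, and even tumour 3, the lowest tumour, lay above them all. The gene was at least 2.97-fold higher than in pre-transformed cells (log2 change 2.67 ± 0.33, adjusted p = 0.000134) and at least 3.19-fold higher than in controls (2.18 ± 0.38, adjusted p = 0.0014). Fancl is the subunit that attaches that ubiquitin, and its signals were 104.2 and 150.4 in controls, 98.7, 88.0 and 101.1 in pre-transformed cells and 314.1, 325.2, 189.3 and 304.5 in tumours. Tumour 3 stood below the other 3 tumours but above every sorted sample. Fancl rose 2.89-fold over pre-transformed cells (1.53 ± 0.23, adjusted p = 0.000381) and 2.21-fold over controls (1.15 ± 0.26, adjusted p = 0.00569).

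Fancm, the DNA translocase that anchors the core complex, had signals of 42.4 and 27.2 in controls, 36.4, 32.3 and 36.8 in pre-transformed cells, and 61.0, 67.5, 86.9 and 166.5 in tumours. Tumour 4 was far above the other tumours, and all tumours lay above the sorted samples. Fancm was at least 2.01-fold higher than in pre-transformed cells (log2 change 1.32 ± 0.35, adjusted p = 0.00941) and at least 2.15-fold higher than in controls (1.37 ± 0.40, adjusted p = 0.0181). It did not pass in either comparison with the mean of its probe sets, nor against controls with every signal under 40 set to 40.

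Fanca and Fancb belong to the core complex, Fancb being on the X chromosome. Fanca had signals of 57.2 and 45.7 in controls, 29.9, 42.2 and 38.0 in pre-transformed cells and 94.9, 66.9, 75.2 and 113.8 in tumours. Tumours lay above both sorted groups, at least 1.96-fold above pre-transformed cells (log2 change 1.24 ± 0.25, adjusted p = 0.00236), and against controls the log2 change was 0.75 ± 0.29 (adjusted p = 0.0559). Fancb had signals of 52.0 and 51.6 in controls, 47.0, 54.0 and 47.1 in pre-transformed cells and 76.6, 104.0, 83.7 and 114.8 in tumours. It did not overlap between tumours and sorted samples, with a 1.90-fold rise over pre-transformed cells (0.93 ± 0.21, adjusted p = 0.00435) and a 1.81-fold rise over controls (0.85 ± 0.24, adjusted p = 0.016).

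The other core complex genes measured, Fancc, Fance and Fancg, did not pass. Fancc had signals of 40.1 to 55.2 on sorted arrays and 35.1 to 50.4 in tumours, and its log2 change against pre-transformed cells was -0.42 ± 0.23 (adjusted p = 0.142). Fance had 44.6 to 74.7 on sorted arrays and 27.9 to 41.4 in tumours (-0.65 ± 0.26, adjusted p = 0.0548). Fancg had 63.9 to 78.7 on sorted arrays and 46.5 to 64.5 in tumours (-0.45 ± 0.21, adjusted p = 0.0883). For Fance all tumours lay below all sorted samples, while the tumours of Fancc overlapped with both sorted groups and those of Fancg with controls. Against controls, the log2 changes were -0.13 ± 0.26 for Fancc, -0.61 ± 0.29 for Fance and -0.35 ± 0.24 for Fancg. With each array centred on its median, Fance and Fancg passed as lower in both tumour comparisons. Against pre-transformed cells Fance passed as lower in 7 of 22 other settings, that centring among them. With every signal under 40 set to 40, Fancc, Fance and Fancg all passed as lower than in pre-transformed cells. The dimmer probe sets of Fance and Fancg did not fall. That of Fance changed by 0.02 against pre-transformed cells and 0.05 against controls, and that of Fancg by 0.64 and 0.84, and none of these passed.

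Among the checkpoint genes Chek1, Rad1, Clspn, Topbp1, Chek2 and Rad17 rose over pre-transformed cells, and Atr, Atrip, Atm, Hus1, Mdc1 and Trp53bp1 did not pass. In tumours 6 of 12 were thus higher than in pre-transformed cells, with a median log2 change of 0.48 over the 12, and 5 were higher than in controls. None of the 12 was lower in either comparison, where an unadjusted p under 0.05 gave 1 (Trp53bp1) and 0 lower. The shares of all genes were 23.8% higher and 31.1% lower than in pre-transformed cells, and 20.5% and 25.3% against controls.

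Chek1 encodes CHK1, the kinase that slows the cell cycle when forks stall. Its signal was 99.3 and 134.6 in controls, 50.3, 82.5 and 70.6 in pre-transformed cells, and 635.9, 702.4, 404.8 and 775.1 in tumours. The pre-transformed arrays lay below both controls, and the lowest tumour lay well above every sorted sample. The log2 change before transformation was -0.80 ± 0.24 (adjusted p = 0.14) and did not pass. Chek1 was 9.21-fold higher in tumours than in pre-transformed cells (log2 change 3.20 ± 0.26, adjusted p = 1.77e-05) and 5.29-fold higher than in controls (2.40 ± 0.30, adjusted p = 0.000269).

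Clspn, the adaptor that lets ATR activate CHK1, had signals of 393.7 and 512.0 in controls, 223.7, 293.0 and 313.3 in pre-transformed cells, and 598.1, 586.7, 369.1 and 595.8 in tumours. Tumours 1, 2 and 4 lay above the controls and tumour 3 below them, and all were above the pre-transformed arrays. The log2 change was -0.71 ± 0.17 before transformation (adjusted p = 0.0871), 0.94 ± 0.21 in tumours against pre-transformed cells (1.92-fold, adjusted p = 0.00416) and 0.23 ± 0.24 against controls (adjusted p = 0.455). Topbp1, which activates ATR, had signals of 581.9 and 667.4 in controls, 589.9, 760.4 and 611.4 in pre-transformed cells and 1149.2, 1035.6, 917.6 and 1319.6 in tumours. Sorted groups overlapped and tumours lay above them, with a 1.69-fold rise over pre-transformed cells (0.75 ± 0.16, adjusted p = 0.00275) and a 1.76-fold rise over controls (0.81 ± 0.18, adjusted p = 0.00502). A dimmer Topbp1 probe set went the other way (log2 change -2.58).

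The checkpoint clamp is a ring that RAD17 loads beside stalled forks. Its subunit Rad1 had signals of 115.2 and 97.0 in controls, 94.2, 99.6 and 98.7 in pre-transformed cells and 365.3, 384.1, 201.7 and 315.2 in tumours. Tumour 3 was again the lowest and yet above every sorted sample. Rad1 rose 3.15-fold over pre-transformed cells (log2 change 1.66 ± 0.23, adjusted p = 0.000239) and 2.91-fold over controls (1.54 ± 0.26, adjusted p = 0.00124). The loader Rad17 had signals of 292.6 and 318.4 in controls, 351.5, 334.2 and 306.3 in pre-transformed cells and 420.4, 607.9, 378.5 and 666.2 in tumours. Tumours 2 and 4 were high and tumours 1 and 3 closer to the sorted samples. Rad17 rose 1.53-fold over pre-transformed cells (0.61 ± 0.21, adjusted p = 0.0297, passed in 14 of 22 other settings) and 1.65-fold over controls (0.72 ± 0.23, adjusted p = 0.0294). The clamp subunit Hus1 did not pass, with 123.2 to 139.2 on sorted arrays, 120.5 to 161.2 in tumours and log2 changes of 0.15 ± 0.17 and 0.11 ± 0.19 against pre-transformed cells and controls.

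Of the kinases at the top of the checkpoint, Atr passed in one comparison and Atm in none. Atr had signals of 172.5 and 152.2 in controls, 194.1, 210.1 and 181.9 in pre-transformed cells and 333.5, 217.0, 218.3 and 242.5 in tumours. The groups followed each other without overlap, and tumour 1 stood highest. Against controls Atr was 1.54-fold higher (log2 change 0.62 ± 0.21, adjusted p = 0.035, passed in 15 of 22 other settings), and against pre-transformed cells the change was 0.35 ± 0.18 (adjusted p = 0.132). Its partner Atrip had signals of 27.2 to 53.9 on sorted arrays and 29.4 to 59.5 in tumours, with log2 changes of 0.08 ± 0.35 and 0.01 ± 0.40. Atm had signals of 170.3 to 207.0 on sorted arrays and 123.6 to 213.1 in tumours, and its changes were -0.26 ± 0.20 and -0.20 ± 0.23. Neither passed, and tumours overlapped with sorted samples for both.

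Chek2, the kinase downstream of ATM, had signals of 69.7 and 77.7 in controls, 78.2, 73.7 and 61.0 in pre-transformed cells, and 77.0, 120.9, 142.8 and 116.4 in tumours. Tumour 1 lay within the sorted samples and the other 3 tumours above them. The rise over pre-transformed cells was 1.58-fold (log2 change 0.66 ± 0.24, adjusted p = 0.0369) and passed in 10 of 22 other settings, and against controls the change was 0.60 ± 0.27 (adjusted p = 0.091). A pair of proteins that gather at breaks did not pass: Mdc1, with 112.7 to 131.7 on sorted arrays, 125.2 to 172.3 in tumours and changes of 0.36 ± 0.18 and 0.29 ± 0.20, and Trp53bp1, which limits resection, with 548.1 to 598.8 on sorted arrays, 392.4 to 519.3 in tumours and changes of -0.33 ± 0.14 and -0.29 ± 0.15. All tumours lay below all sorted samples for Trp53bp1, which passed as lower in both tumour comparisons with each array centred on its median. Against pre-transformed cells Trp53bp1 passed in 3 of 22 other settings, that centring among them.

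Parp1, the enzyme that senses strand breaks and builds poly(ADP-ribose), had signals of 254.9 and 273.2 in controls, 218.1, 244.4 and 252.7 in pre-transformed cells, and 851.4, 1145.5, 752.8 and 656.5 in tumours. Each pre-transformed array lay below both controls by a small margin, and all tumours lay far above. The rise was 3.50-fold over pre-transformed cells (log2 change 1.81 ± 0.19, adjusted p = 5.26e-05) and 3.16-fold over controls (1.66 ± 0.21, adjusted p = 0.000329).

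**Figure D3:**
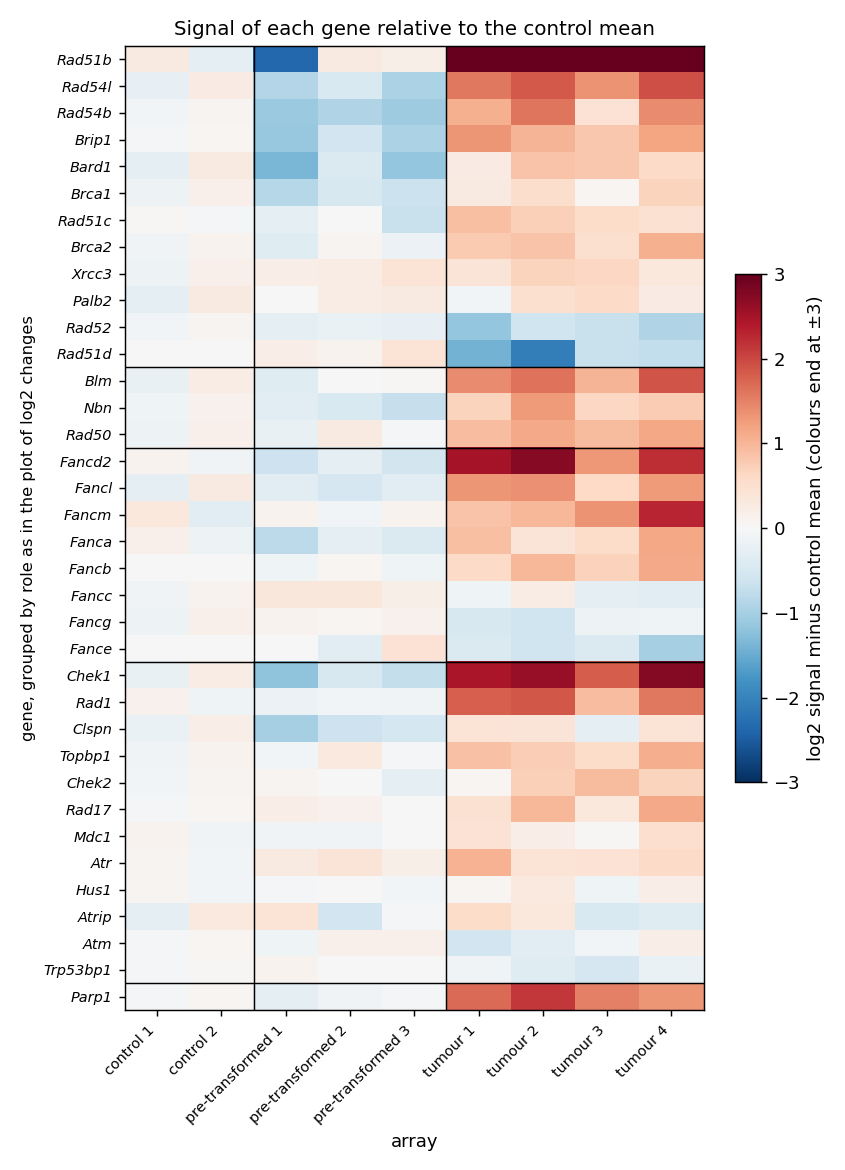
Log2 signal of the 36 genes (rows, by role) on each of the 9 arrays (columns), relative to the mean of the 2 controls, with colours ending at 3 and -3. The 4 tumour columns are red for most genes and pale or blue for Rad52, Rad51d, Fancc, Fancg, Fance, Atm and Trp53bp1 on most arrays.

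Individual arrays differed in the height of the rise. Of the 23 genes that rose over pre-transformed cells, tumour 3 was the lowest tumour in 15 and tumour 4 the highest in 11. Their median distance from the tumour mean was -0.28 on the log2 scale in tumour 3, -0.06 in tumour 1, 0.15 in tumour 2 and 0.18 in tumour 4. Tumour 3 was also the lowest for 19 of 25 DNA replication genes and 16 of 19 mitosis genes. Pre-transformed 1 was the lowest of its group in 16 of the 23 genes and in 18 of 25 replication genes, and control 1 was the lower control in 16 of the 23 and in 24 of 25.

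Tumour 2, whose myeloid and B cell marker sums did not exceed those of sorted cells, was the highest tumour in 8 of the 23 genes and the lowest in 1. Without tumour 2, 21 genes were higher and 2 lower than in pre-transformed cells (24.8% and 31.4% of all genes), and without tumour 3, 23 were higher and 3 lower (23.5% and 32.5%). The part of RNA quality in these changes was not tested.

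Other probe sets of the same genes gave a check on the choice of the brightest. The 36 genes had 76 probe sets above the filter, of which 42 were higher and 6 lower in tumours than in pre-transformed cells when every probe set was fitted as a feature of its own, against 23.1% and 26.7% of all 26421 probe sets kept. A total of 21 genes had more than 1. Genes that rose had 22 other probe sets, of which 17 were higher, 1 lower and 4 did not pass. Genes that did not pass had 14 others, of which 2 were higher and 0 lower.

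For Chek1 the 3 other probe sets rose by log2 changes of 3.39, 2.83 and 2.47, and for Brca1 2 of 3 others rose by 3.22 and 4.73 from dim signals while the third changed by 0.30 and did not pass. The dimmer Topbp1 probe set fell from a mean of 67.15 in pre-transformed cells to 11.26 in tumours (log2 change -2.58, adjusted p = 0.0111), against the rise of the bright one. Topbp1 is thus uncertain at the level of the gene. Of the 3 other Rad51d probe sets, 2 fell, by 2.22 and 2.43 on the log2 scale, and 1 changed by -0.35 and did not pass. The second probe set of Rad52 fell by 1.09. For Parp1, 2 of 3 others rose by 1.61 and 2.08, and the third changed by -0.60 and did not pass. Another probe set each of Atr and Xrcc3 rose, by 1.73 and 1.27, where the bright probe sets did not pass. That of Atr read 12.5 to 21.7 on sorted arrays, and tumour 2 (17.8) lay within them. The remaining Atr probe set changed by 1.12 and did not pass (limma adjusted p = 0.0584).

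**Figure D4:**
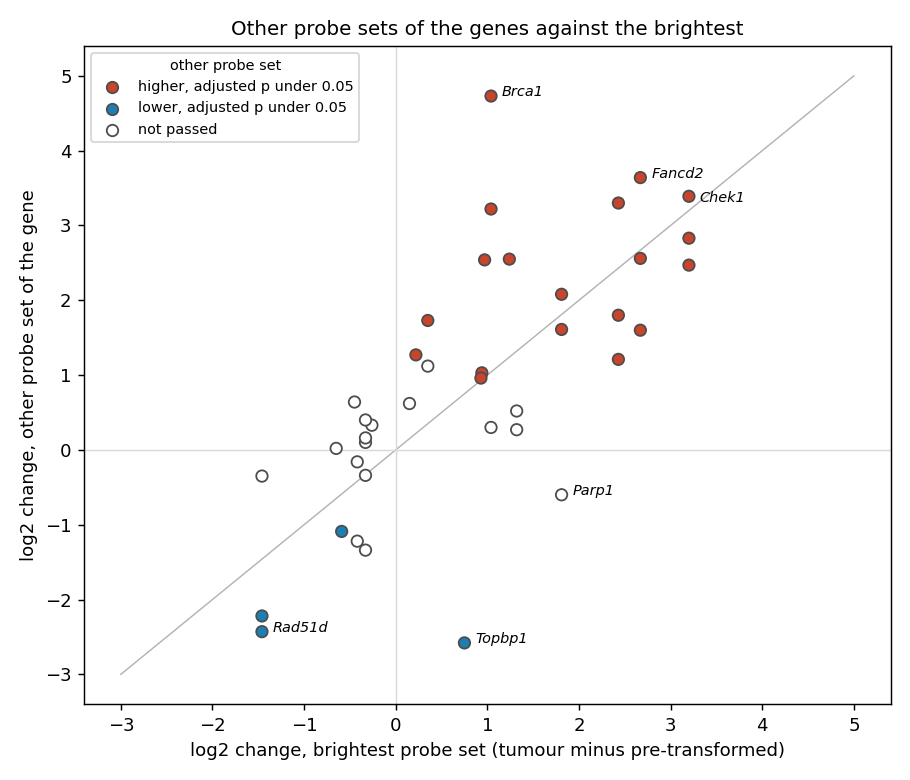
Log2 change in tumours against pre-transformed cells of the 40 other probe sets (vertical) against that of the brightest probe set of the same gene (horizontal), with filled points where the other probe set passed an adjusted p of 0.05 and a line at equal change. Most filled points lie in the upper right, 3 of Rad51d and Rad52 lie in the lower left, and the Topbp1 probe set lies in the lower right.

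The wider pathway also held both rises and falls. Of 49 other genes of recombination, crosslink repair and the checkpoint, 29 were higher and 7 lower in tumours than in pre-transformed cells (median log2 change 0.67, with 23.8% and 31.1% of all genes), and 18 were higher and 7 lower than in controls (median 0.50, with 20.5% and 25.3%). The largest rises measured above the dim level in tumours were those of Exo1, the nuclease of long-range resection (2.58 ± 0.30, at least 5.94-fold), Rad51ap1, an accessory factor of strand exchange (2.13 ± 0.30), and Tipin, a fork protection factor (2.07 ± 0.17). The largest falls were those of Fbh1, a helicase that limits recombination (-1.58 ± 0.17), Rad9a, the third subunit of the checkpoint clamp (-1.54 ± 0.23), Wdr48, the cofactor of the deubiquitinase of FANCD2 (-1.33 ± 0.25), and Mus81, a nuclease that cuts joint molecules (-1.27 ± 0.21). Limma adjusted p for these genes was at most 0.00154. Mnd1, a meiotic recombination factor, also passed as higher, but it was dim in every group, with 0.6 to 2.9 on sorted arrays and 18.3 to 53.6 in tumours, and passed the filter through its tumour arrays alone, so that no size is given.

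Rad9a and Rad1, subunits of the same ring, thus moved in opposite directions, from a mean of 236.9 in pre-transformed cells to 81.68 in tumours for Rad9a and from 97.47 to 307.3 for Rad1. Before transformation 2 of the 49 genes fell and 0 rose, and an unadjusted p under 0.05 gave 1 higher and 16 lower (median log2 change -0.25), where all genes gave 1129 higher and 915 lower of 11588. Tipin went from 770.2 in controls to 483.5 in pre-transformed cells (log2 change -0.67 ± 0.13, adjusted p = 0.0435), and Rpa3, a subunit of the protein that coats single-stranded DNA, from 673.1 to 428.4 (-0.65 ± 0.12, adjusted p = 0.0418). Both rose in tumours, to 2031 and 959.0.

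Genes of the cell cycle, listed beside the repair genes, changed as follows. Of 25 DNA replication genes, 0 rose and 1 fell before transformation (median log2 change -0.58), 24 rose in tumours against pre-transformed cells (median 1.70) and 23 against controls (1.14). Of 19 mitosis genes, 8 fell before transformation (median -0.86), 19 rose in tumours against pre-transformed cells (2.13) and 19 against controls (1.29). Among all genes 1.16% rose and 0.57% fell before transformation, and 23.8% and 20.5% rose in the tumour comparisons. Before transformation an unadjusted p under 0.05 gave 0 higher and 17 lower of the 25 replication genes. It gave 0 higher and 19 lower of the 19 mitosis genes, where all genes gave 1129 higher and 915 lower of 11588. Mki67, a marker of cycling cells, went from 1345 in controls to 819.9 in pre-transformed cells and 3142 in tumours, Top2a, the topoisomerase that untangles chromosomes, from 1693 to 1105 and 3457, and Mcm2, a subunit of the replicative helicase, from 452.1 to 490.4 and 1013. The log2 change of Mcm2 before transformation (0.12) was the highest of the 25 replication genes, so that Mcm2 does not stand for that list there. The part of the share of cycling cells in the changes of the repair genes was not tested.

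Of 9 end joining genes, which serve the breaks at receptor genes, 2 rose and 5 fell in tumours against pre-transformed cells (median log2 change -0.59), and 2 rose and 2 fell against controls (-0.40). Of all genes 23.8% rose and 31.1% fell in the first comparison and 20.5% and 25.3% in the second, so that the counts of end joining genes, apart from the 5 that fell, lie near the share of all genes. In pre-transformed minus control 0 of the 9 passed, while an unadjusted p under 0.05 gave 2 higher and 0 lower.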

How the data were processed

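RNA of 9 mice was measured on Affymetrix arrays. The deposited values are linear MAS5 intensities of probe sets (MAS5 per the submitters' processing notes, version not given in the sources used here), scaled, as checked on the values, to a trimmed mean of 100 and rounded to 0.1. Signals were taken to log2 with 218 zeros set to 0.1. Without 64 control probe sets, 45037 were left, of which 34945 name 1 gene, 932 several and 9160 none in the platform annotation used here, and 26421 were at or above their array's median on at least 2 arrays. The highest mean chose each gene's probe set before the filter was applied.

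The test was limma (version 3.58.1, R 4.3.3) with lmFit and a trended eBayes, adjusted by Benjamini-Hochberg over 11588 genes at 0.05. The 5 sorted arrays had a fit of their own, and tumour comparisons used all 9. Group values are geometric means, and errors are standard errors of the fit. The code was tested on simulated data. The text names every listed gene, the 4 largest rises and falls among other genes of the pathway, any of those called before transformation, and Mki67, Top2a and Mcm2. Members and lists were chosen with earlier results of these data known. Replicate numbers name different mice, and deviations of same-numbered arrays correlated at -0.019 to 0.087, so no pairing was used. The labels describe 1 mouse per array, and the number of arrays limits precision. Alternatives changed the filter, scaling, dim values, probe set choice, variance model and arrays. Promoter windows are from RefSeq on GRCm38.p6. Plots used matplotlib 3.10.9 (Python 3.11.15).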

Additional observations from a re-analysis of the deposited data

Results flagged for a closer look

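In 2 of 36 genes checked, 1 tumour stood apart from the other 3: its gap to the nearest, divided by the whole range of the group, exceeded Dixon's 95% critical value for 4 samples. Both were tumour 3, with a Fancl signal of 189.3 (ratio 0.878) and a Clspn signal of 369.1 (ratio 0.96). Chance alone marks about 1 in 20 groups, a rate near the 2 of 36 found here. Tumour 3 was also the lowest tumour for 15 of the 23 genes that rose over pre-transformed cells. That count draws on the same arrays and is no separate support for the 2 flags.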

How the results depend on the processing

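Of 25 calls of these genes in tumours against pre-transformed cells 14 passed in every one of the alternatives in which the gene could be fitted, and of 20 calls against controls 6 did. Against pre-transformed cells the count of higher genes (23) was 17 with median centring, 19 with a floor of 40, chosen after seeing the data, and 21 to 25 otherwise. The count of lower genes (2) was 1 with quantile normalization, with only the compared groups fitted and with the replicate block. It was 3 with 16 added to every signal, with the mean of probe sets, without the variance trend and with array weights. With median centring it was 5, with the floor 6, and leaving out an array 1 to 3. Against controls the higher count (18) was 7 with median centring, 15 with only the compared groups fitted, 9 to 19 leaving out an array and 17 to 20 otherwise. The lower count (2) was 1 with quantile normalization, without suffixed probe sets and with only the compared groups fitted, 5 with median centring, and 0 to 2 leaving out an array. Before transformation 1 gene was lower with array weights (Brca1) and 1 with the replicate block (Clspn), and leaving out an array gave 0 throughout. The replicate block otherwise gave 21 higher against pre-transformed cells and 18 higher and 2 lower against controls, while the numbers did not pair the arrays. Topbp1 reversed with the mean of its probe sets, to -0.91 against pre-transformed cells and -0.80 against controls. There its dimmer probe set, which was above the dim level in sorted cells and under it in tumours, weighs equally. For the other changes the cause was not tested. Dim signals in sorted cells limit Rad51b, Bard1 and Rad54b, which did not pass against pre-transformed cells with the floor.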
